A study of Mus musculus with 6 samples.

Results

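The genes of cholesterol and fatty acid synthesis were examined in macrophages of the healing mouse infarct. The list held 29 genes of the 54532 rows of the deposited count table, taken by symbol for their place in the pathway, and every symbol was found. RNA-seq libraries were compared between 3 ITGA5 fl/fl mice, which carry floxed alleles of the integrin α5 gene and no Cre and serve as controls, and 3 Myα5KO littermates, which also carry LyzM-Cre. All mice were of the C57BL/6 strain and 12 weeks old, and all hearts were taken 7 days after permanent occlusion of the left anterior descending coronary artery. Ly6G- CD11b+ cells of individual infarcted hearts were isolated on magnetic columns. LyzM-Cre is a knock-in to the lysozyme M gene Lyz2 and acts in myeloid cells at large, not in macrophages alone. The sex of the mice behind these libraries is not given in the sources used here. No group with Cre and intact Itga5 was among these libraries, so the effects of Cre and of Itga5 loss cannot be told apart here.

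Cells make cholesterol from acetyl-CoA through mevalonate, isoprenoids, squalene and lanosterol, and make saturated and monounsaturated fatty acids from citrate through malonyl-CoA. Transcription of both pathways is driven by the sterol regulatory element binding proteins (SREBPs), which are held in the endoplasmic reticulum by the sterol sensor SCAP and its INSIG partners when sterols are plentiful. In macrophages, which take up dead cells and their membranes, this system works beside the oxysterol-responsive liver X receptors (LXR) and the sterol exporters that they induce.

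Total counts lay between 15424451 and 18419287 per library. As a check of the labels, Itga5 had a normalised read count (CPM, counts scaled to the effective library size) of 607 ± 43.2 in the controls against 48.7 ± 1.48 in Myα5KO (SD, n = 3 each; log2 fold change -3.64). Lyz2, the site of the Cre insertion, had 7315 ± 286 and 3874 ± 254 CPM. The macrophage markers Csf1r, Adgre1 and Cd68 were abundant in every library. Summed CPM of the 10 macrophage markers ranged from 19700 to 20500 in ITGA5 fl/fl and from 15860 to 16630 in Myα5KO, and without Lyz2 from 12630 to 12870 and from 11890 to 12560. Sums of granulocyte markers (33.4 to 55.7 against 75.1 to 196 CPM, Ly6g itself at 0 to 2 counts), monocyte markers (271 to 354 against 419 to 423 CPM) and T and NK cell markers (4.62 to 5.69 against 7.22 to 8.62 CPM) were higher in each Myα5KO library. Those of fibroblast markers (1620 to 1899 against 1211 to 1579 CPM) and cardiomyocyte markers (22.1 to 24.2 against 13.8 to 17.0 CPM) were lower in each. With 3 against 3 libraries the exact two-sided permutation test cannot give a p under 0.1, and the adjusted p of each of these sums was 0.157. Single markers were read from the edgeR fit at an adjusted p of 0.05 or less. Of those tested, 6 of 7 granulocyte, 3 of 5 monocyte and 0 of 3 T and NK cell markers were called higher, against 3.56% of all genes. Retnlg (log2 fold change -0.65) and Chil3 (-0.06) went the other way, uncalled. Called lower were 1 of 8 fibroblast and 3 of 7 cardiomyocyte markers, against 5.19%. Sums of endothelial, B cell, dendritic cell and proliferation markers overlapped, with adjusted p from 0.275 to 0.9. The part of these cells in the values below was not tested, and in bulk RNA fewer cells of a type and less RNA per cell cannot be told apart.

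Levels of different genes were compared on the deposited FPKM scale, which divides counts by the deposited gene length. For some genes this length exceeds the longest annotated coding transcript, at 10787 against 4667 bases for Lss and 4208 against 1382 for Fdps. For Scd1 the lengths were 4836 and 4832 bases. The order of genes by FPKM is therefore approximate. The 29 genes covered a wide range. Acly, which makes cytosolic acetyl-CoA from citrate, had the highest mean level, 37.4 FPKM over the 6 libraries, above 91.3% of all genes tested. Insig1 (33.4 FPKM), Srebf2 (24.2 FPKM) and Ebp (17.3 FPKM) followed. Srebf1, Pmvk and Mvd had means between 10.3 and 11.7 FPKM, and the libraries of these neighbours in the order overlapped. The median of the 28 tested members was 3.94 FPKM, close to the 3.73 FPKM of all genes tested. At the low end stood Hsd17b7 (0.823 FPKM) and Lss (0.384 FPKM).

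**Figure D1:**
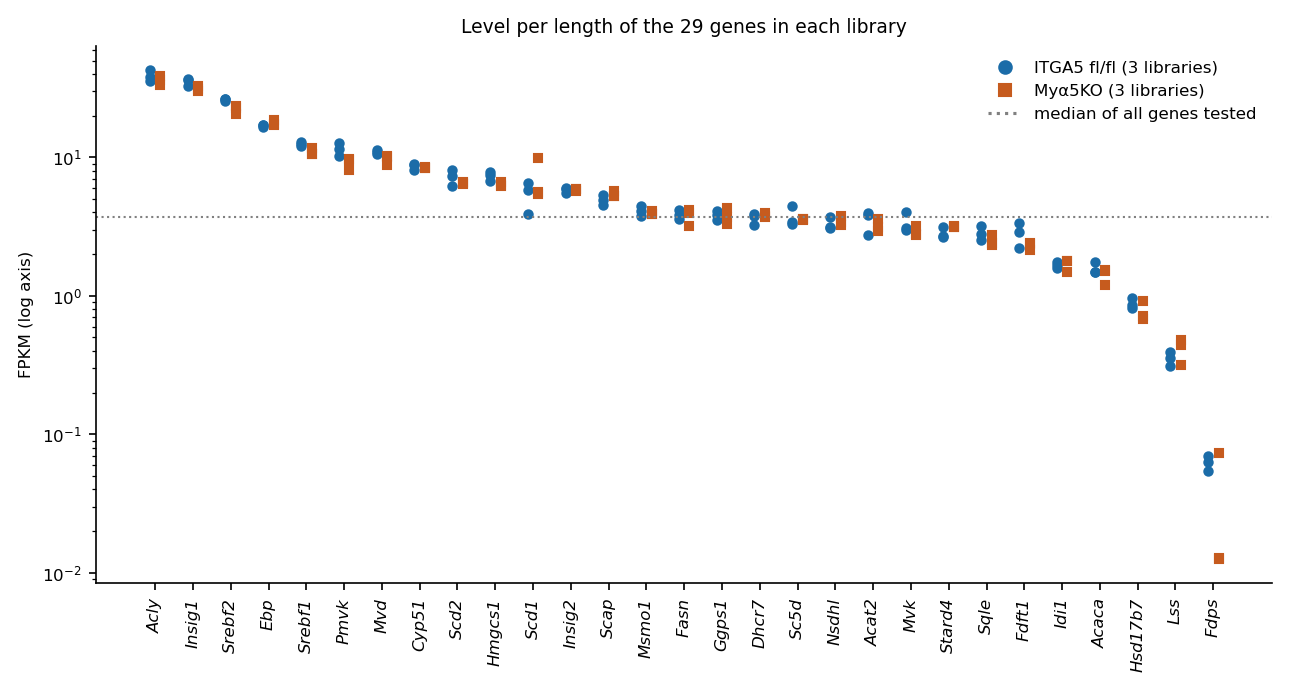
Level per length of the 29 genes, in FPKM on a log axis, with a circle for each of the 3 ITGA5 fl/fl libraries and a square for each of the 3 Myα5KO libraries, in order of the mean over 6 libraries. The genes run from Acly at 37.4 FPKM to Fdps at 0.0476 FPKM, and the dotted line marks the median of all genes tested, 3.73 FPKM.

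Fdps, the gene of farnesyl diphosphate synthase, had only 4, 5 and 4 counts in the control libraries and 1, 1 and 6 counts in the Myα5KO libraries. Its transcript shares 86.4% of its 50-base words with 8 other annotated genes, and none of these copies held more than 1 count in a library. How the counting treated reads that match several places is not given in the sources used here, so the level of Fdps is uncertain and it was not tested. The other 28 members passed the expression filter.

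Loss of myeloid ITGA5 was accompanied by small differences in these genes. Of 28 tested members, 1 fell (3.57%) and 0 rose in Myα5KO macrophages at an adjusted p of 0.05 or less by the quasi-likelihood test of edgeR, against 8.75% of all genes tested (3.56% higher and 5.19% lower). The member that fell was Srebf2, and DESeq2 and limma-voom also called Srebf2 alone. At an unadjusted p under 0.05 there were 5 members, Srebf2, Srebf1, Insig1, Hmgcs1 and Pmvk, each with a lower mean in Myα5KO. These were 17.9% of the tested members, against 23.1% of all genes at that threshold (11.4% lower). The log2 fold change of Myα5KO over ITGA5 fl/fl was negative in 19 members and positive in 9. Its median was -0.08, against 0.01 over all genes tested, and the median absolute value was 0.15 in both sets. The split and the median rested on the scaling and on 1 library. With library totals in place of TMM factors the split was 14 to 14 and the median -0.0010, and without ITGA5 fl/fl replicate 2 they were 15 negative to 13 positive and -0.04. Libraries of the groups did not overlap in 7 of 28 members (25%), against 28.6% of all genes. These were Srebf1, Srebf2, Hmgcs1, Pmvk and Mvd, lower in Myα5KO, and Ebp and Stard4, higher.

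**Figure D2:**
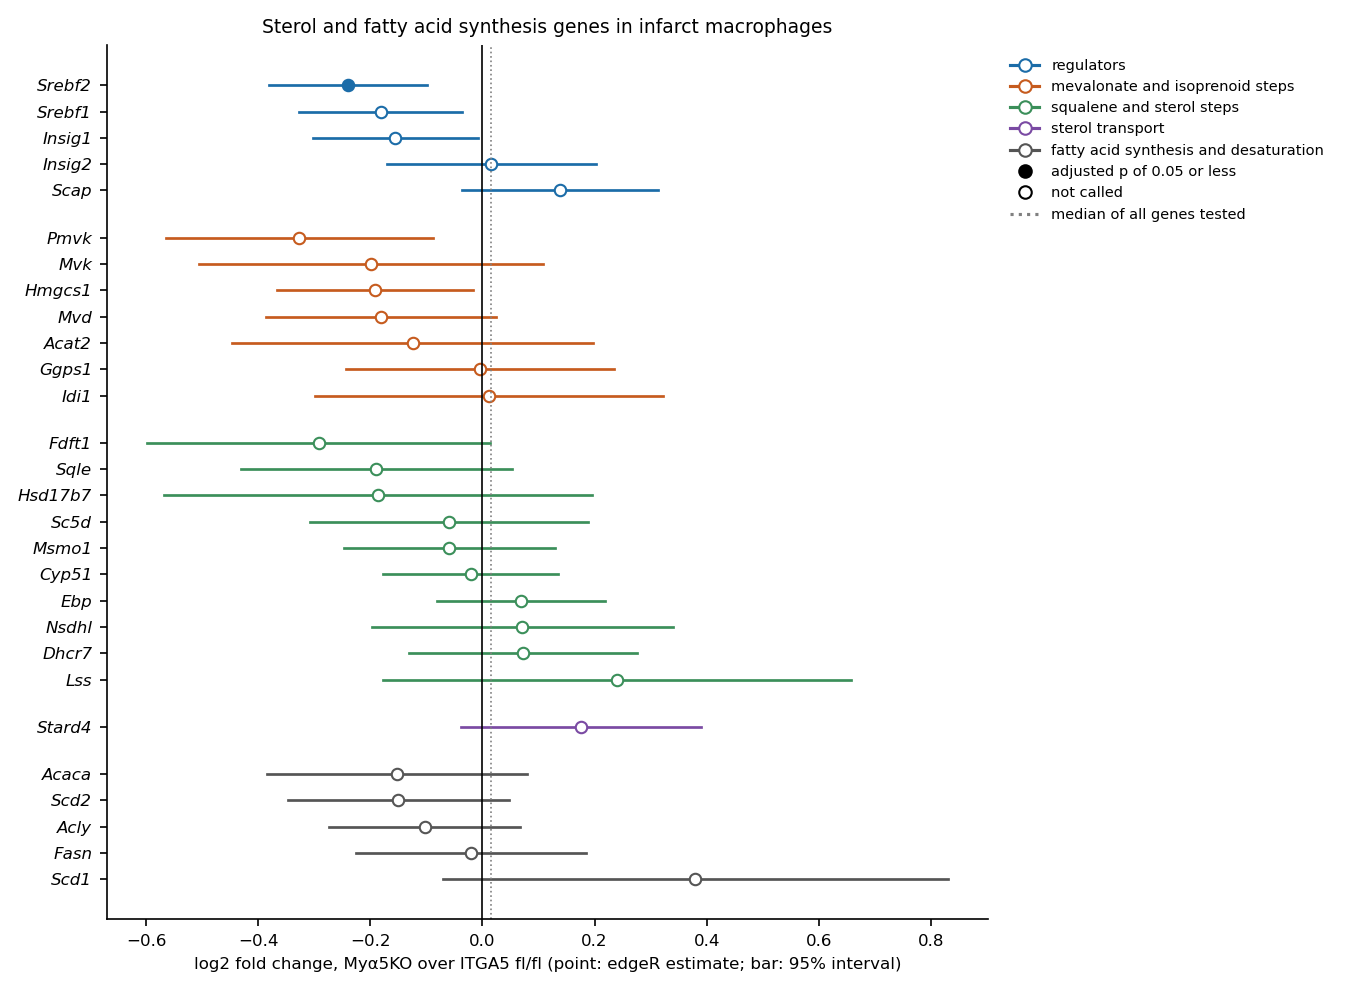
Log2 fold change of each of the 28 tested members, Myα5KO over ITGA5 fl/fl, with its 95% interval, grouped and coloured by role. Only the filled point, Srebf2 at -0.24, passed the adjusted threshold, and the dotted line at 0.01 is the median of all genes tested.

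The width of the intervals sets what could have been seen. The 95% interval of the log2 fold change extended by a median of 0.21 to either side (0.14 to 0.45). It lay within a 2-fold change in both directions for 28 of 28 members, and within 1.5-fold for 25, the exceptions being Fdft1, Lss and Scd1.

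Among the regulators, the transcripts of both SREBP genes and of Insig1 had lower means in Myα5KO macrophages, whereas Scap and Insig2 did not. Srebf2 (ENSMUSG00000022463; GRCm38 chromosome 15, 82147181 to 82205379, plus strand) encodes SREBP2, the main activator of cholesterol synthesis genes. Its expression was 192, 186 and 191 CPM in the control libraries and 168, 164 and 150.0 CPM in the Myα5KO libraries. Every Myα5KO library lay below every control library, and the controls lay close together. The mean fell by 15.3%, from 189.6 ± 3.12 to 161 ± 9.34 CPM (SD, n = 3 each; log2 fold change -0.24, SE 0.07, 95% interval -0.38 to -0.10, edgeR adjusted p 0.037).

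The sign of this difference was the same in 15 of 15 alternative fits, but 7 of them called it. The adjusted p was 0.0167 with DESeq2, 0.118 with library totals (log2 fold change -0.16), 0.0765 and 0.0785 on the FPKM scale, and 0.0932, 0.0995, 0.12, 0.095 and 0.0745 without ITGA5 fl/fl replicate 1, 2 or 3 or Myα5KO replicate 2 or 3. Without Myα5KO replicate 1 it was 0.0351.

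Srebf1 (ENSMUSG00000020538; chromosome 11, 60199089 to 60222581, minus strand) encodes SREBP1, whose main targets are genes of fatty acid synthesis. It had 67.7, 70.5 and 73.5 CPM in controls and 60.1, 66.0 and 60.6 CPM in Myα5KO libraries. The groups did not overlap, although the highest Myα5KO library came close to the lowest control. The log2 fold change was -0.18 (SE 0.07, unadjusted p 0.0181, edgeR adjusted p 0.12) and did not pass the test. Per length, Srebf2 exceeded Srebf1 in every library, by a ratio of 2.11 ± 0.0960 in ITGA5 fl/fl and 2.03 ± 0.143 in Myα5KO (SD, n = 3 each), and these ratios overlapped.

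Insig1 and Insig2 encode the membrane proteins that retain SCAP, and Insig1 is itself a target of the SREBPs. Insig1 (ENSMUSG00000045294; chromosome 5, 28071363 to 28078662, plus strand) had 102, 113 and 113 CPM in controls and 94.0, 97.0 and 104 CPM in Myα5KO libraries. One control library lay among the Myα5KO values. Its change of -0.16 on the log2 scale (SE 0.07, edgeR adjusted p 0.191) did not pass the test. Insig2 had 19.2, 21.1 and 20.5 CPM against 20.7, 20.5 and 20.2 CPM, values that overlapped throughout (log2 fold change 0.02, 95% interval -0.17 to 0.20). The ratio of Insig1 to Insig2 on the FPKM scale, formed after the values were seen, was 6.06 ± 0.138 in ITGA5 fl/fl and 5.38 ± 0.337 in Myα5KO (SD, n = 3 each), lower in each Myα5KO library.

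Scap, the sterol sensor that escorts SREBPs to the Golgi for cleavage, had 40.2, 37.2 and 33.5 CPM in the control libraries and 39.2, 42.5 and 40.1 CPM in Myα5KO libraries. The groups overlapped, with a change of 0.14 on the log2 scale (SE 0.08, edgeR adjusted p 0.338). An antisense gene, 5830462I19Rik, overlaps 13.2% of the exon bases of Scap but held no more than 8 counts in a library.

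**Figure D3:**
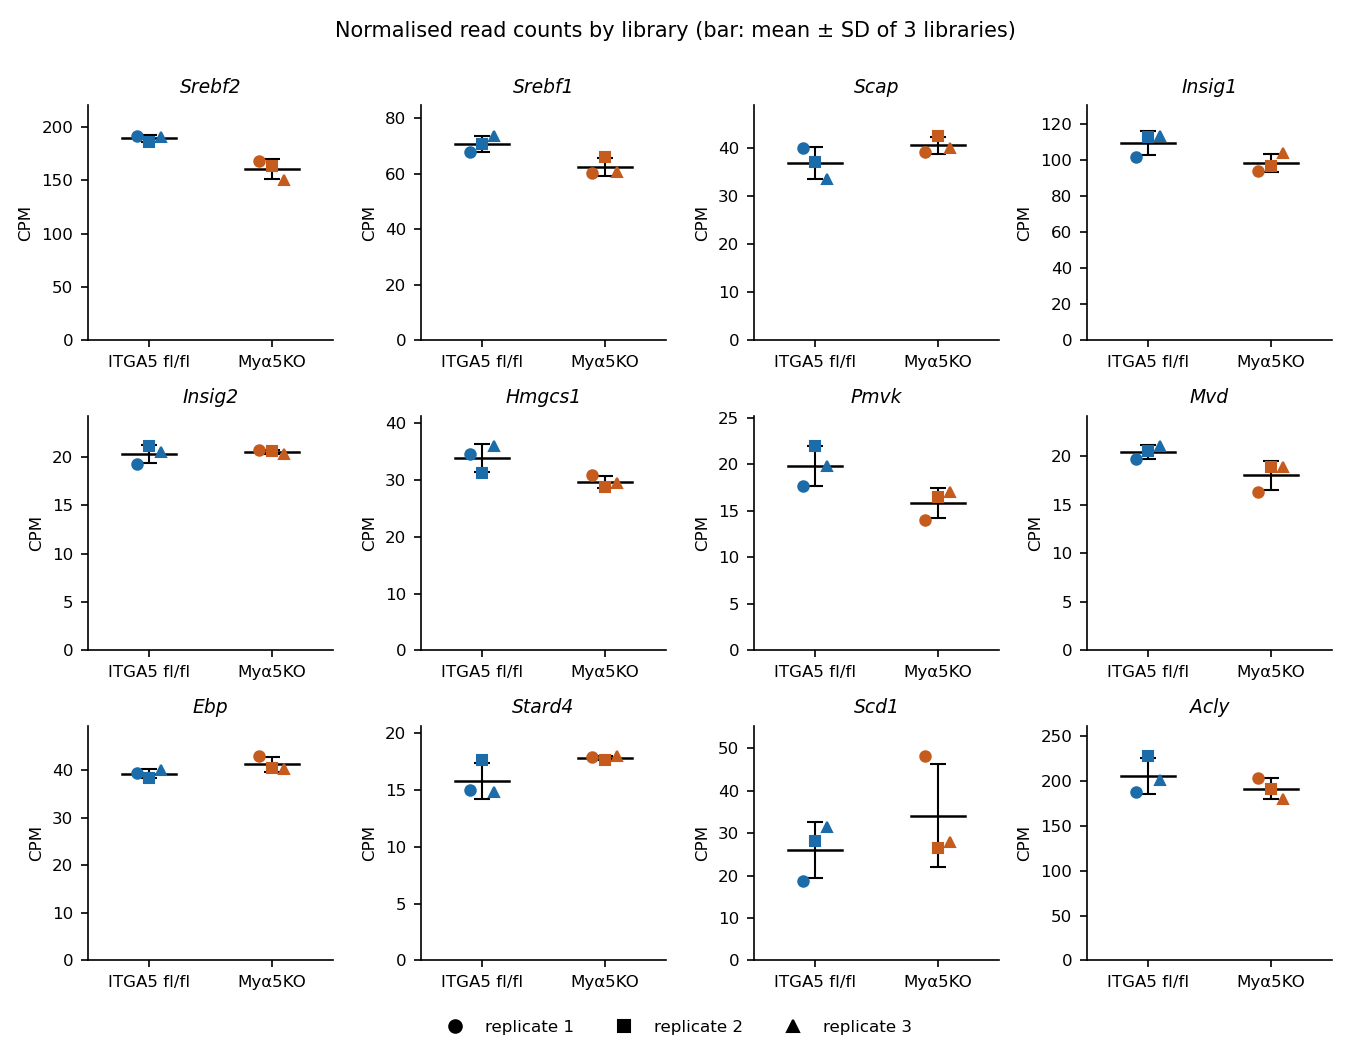
CPM of 12 members in each library, with a marker shape for each replicate number, the mean as a horizontal line and its SD as a bar (n = 3 per group), each axis starting at 0. Srebf2, Srebf1, Hmgcs1, Pmvk and Mvd show no overlap with lower Myα5KO values, Ebp and Stard4 none with higher ones, and Myα5KO replicate 1 stands above the other libraries for Scd1.

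The starts of Srebf2 and Insig1 are shown because they belong to the member that fell and to the retention gene that SREBPs induce. RefSeq promoter windows (GRCm38.p6, from 250 bases before to 50 bases after the RefSeq start) were available for 23 of the 29 members, in 31 windows. The RefSeq start need not be the deposited start of the gene. Capitals mark each match, on either strand, to the core of the sterol regulatory element (TCACNCCAC), an E-box (CACGTG, the same on both strands), the NF-Y box (CCAAT) and the GC box (GGGCGG) to which SP1 binds. On the opposite strand these boxes read ATTGG and CCGCCC, and no marked matches overlap.
Srebf2, chr15:82147019-82147318, plus strand: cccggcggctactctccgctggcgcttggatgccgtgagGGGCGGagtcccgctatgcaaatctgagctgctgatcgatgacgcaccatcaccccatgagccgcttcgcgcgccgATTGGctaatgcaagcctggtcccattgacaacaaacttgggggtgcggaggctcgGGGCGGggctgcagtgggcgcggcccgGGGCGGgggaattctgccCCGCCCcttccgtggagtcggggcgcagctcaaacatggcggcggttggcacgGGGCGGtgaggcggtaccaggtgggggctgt
Insig1, chr5:28071162-28071461, plus strand: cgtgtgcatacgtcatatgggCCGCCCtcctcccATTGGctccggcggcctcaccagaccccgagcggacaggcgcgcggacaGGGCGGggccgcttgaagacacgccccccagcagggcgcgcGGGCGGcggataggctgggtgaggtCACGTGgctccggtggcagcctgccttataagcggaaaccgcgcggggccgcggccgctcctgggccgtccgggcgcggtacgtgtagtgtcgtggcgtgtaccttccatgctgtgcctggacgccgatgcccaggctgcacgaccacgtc

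The Srebf2 window held 1 NF-Y box and 5 GC boxes, and the Insig1 window 1 E-box, 1 NF-Y box and 3 GC boxes. Across the members' windows the NF-Y box was found in 21 of 31 (67.7%) and the GC box in 23 of 31 (74.2%), against 37.4% and 35.7% of all 32851 windows. An E-box was found in 6 of 31 (19.4%), against 7.15% of all windows. Windows of a gene can overlap, and both Scap windows hold the same E-box. By gene the shares were 87.0% for the NF-Y box, 82.6% for the GC box and 21.7% for the E-box. Over all genes with a window they were 41.1%, 38.2% and 8.09%. The sterol regulatory element core was found in 1 of 31, against 1.24% of all windows, and the absence of these letters from a window says nothing of elements outside it or spelled otherwise. A match describes the letters and is not evidence of binding.

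The enzymes from acetyl-CoA to the isoprenoids had lower means in Myα5KO macrophages for 6 of 7 tested members. Their median log2 fold change was -0.18, against 0.01 over all genes, but 0 of 7 passed the adjusted test. An unadjusted edgeR p under 0.05 was found for 2 (28.6%), both lower, against 23.1% of all genes (11.4% lower). The median was -0.10 with library totals, -0.07 without ITGA5 fl/fl replicate 1, -0.12 without Myα5KO replicate 1 and ranged down to -0.25 without ITGA5 fl/fl replicate 2. Hmgcs1 (ENSMUSG00000093930; chromosome 13, 119690379 to 119708260, plus strand) encodes the cytosolic HMG-CoA synthase that commits acetoacetyl-CoA to the pathway. It had 34.5, 31.2 and 36.0 CPM in controls and 30.8, 28.7 and 29.5 CPM in Myα5KO libraries. The ranges were separate by a narrow margin. The log2 fold change was -0.19 (SE 0.08, unadjusted p 0.0334, edgeR adjusted p 0.171). The antisense gene Gm48342 overlaps 12.1% of its exon bases but held at most 3 counts in a library.

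The single window with a sterol regulatory element core belonged to Hmgcs1. The match, in capitals, begins 137 bases before the RefSeq start of this window and lies on the strand of the gene.
Hmgcs1, chr13:119690202-119690234, plus strand: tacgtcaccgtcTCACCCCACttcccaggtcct

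Pmvk and Mvd encode the phosphomevalonate kinase and the decarboxylase that turn mevalonate 5-phosphate into isopentenyl diphosphate. Pmvk (ENSMUSG00000027952; chromosome 3, 89454541 to 89469013, plus strand) had 17.6, 22.0 and 19.9 CPM in controls and 14.0, 16.5 and 17.0 CPM in Myα5KO libraries. Its log2 fold change of -0.33 (SE 0.11, 95% interval -0.57 to -0.09) was the most negative among the members in the fit reported, with an unadjusted p of 0.011 and an edgeR adjusted p of 0.089. Over 15 alternatives its adjusted p ranged from 0.0584 to 0.308, so it was called in none of them. Mvd had 19.7, 20.6 and 21.1 CPM against 16.3, 18.9 and 18.9 CPM, again without overlap (log2 fold change -0.18, SE 0.10, edgeR adjusted p 0.277).

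The other genes of this segment overlapped between groups. Mvk, the mevalonate kinase, had a log2 fold change of -0.20 (SE 0.14), and Acat2, the cytosolic thiolase that joins acetyl-CoA units, one of -0.12 (SE 0.15). Idi1, the isomerase of isopentenyl diphosphate, and Ggps1, which makes geranylgeranyl diphosphate for protein prenylation, had values of 0.01 (SE 0.14) and -0.0043 (SE 0.11). Acat2 and Idi1 share 25.4% and 24.6% of their 150-base words, the read length, with other genes, and their counts are uncertain to that extent. Summed over the 8 genes, expression was 114.8 to 119.5 CPM in controls and 102.7 to 105.1 CPM in Myα5KO libraries, a sum to which Hmgcs1 contributed most.

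Of the enzymes from squalene to cholesterol, none was called. Of 10 members, 0 passed the test at the adjusted threshold and 0 at an unadjusted p under 0.05, the median log2 fold change was -0.04, and 6 values were negative. The direction of the median turned without ITGA5 fl/fl replicate 2 (0.03, 4 values negative) and with library totals (0.04, 3 values negative). Sqle, the squalene epoxidase and a rate-controlling step, had 15.9 ± 1.81 CPM in controls and 13.9 ± 1.14 CPM in Myα5KO (SD, n = 3 each; log2 fold change -0.19, SE 0.11). Fdft1, the squalene synthase, had the most negative value, -0.29 (SE 0.14, edgeR adjusted p 0.24). An abundant gene on the opposite strand, Ctsb, overlaps 18.3% of the exon bases of Fdft1. Without strand information reads from these bases cannot be told apart by gene, and how they were counted is not given.

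Lss, the lanosterol synthase, had the most positive value of this group, 0.24, with an interval from -0.18 to 0.66 that reflects its low counts of 59 to 98 per library. Cyp51 and Msmo1, which remove methyl groups from lanosterol, had values of -0.02 (SE 0.07) and -0.06 (SE 0.09), and Nsdhl, which acts with Msmo1, had 0.07 (SE 0.12). Hsd17b7, the sterol ketone reductase, had -0.19 (SE 0.18). Sc5d and Dhcr7, which act late in the pathway, had -0.06 (SE 0.12) and 0.07 (SE 0.09).

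Ebp, the sterol isomerase, was the best expressed gene of the group and the only one of the 10 whose libraries did not overlap. It had 39.4, 38.3 and 40.01 CPM in controls and 42.9, 40.5 and 40.1 CPM in Myα5KO libraries. The lowest Myα5KO library exceeded the highest control by a margin far smaller than the spread within the group, and the log2 fold change was 0.07 (SE 0.07, edgeR adjusted p 0.605).

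Stard4, which carries cholesterol between membranes in the cytosol and is an SREBP2 target, had 15.01, 17.6 and 14.8 CPM in controls and 17.9, 17.7 and 17.98 CPM in Myα5KO libraries. The Myα5KO values lay closely together, and 1 control library reached almost the same level. The change of 0.18 on the log2 scale (SE 0.10, edgeR adjusted p 0.319) did not pass the test and was positive in 15 of 15 alternatives.

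In the fatty acid branch, 0 of 5 members passed the adjusted test by edgeR, DESeq2 or limma-voom and 0 had an unadjusted p under 0.05, with a median log2 fold change of -0.10 and overlap of the groups for each gene. This median was -0.02 with library totals and without ITGA5 fl/fl replicate 2, -0.16 without ITGA5 fl/fl replicate 1 and -0.05 without Myα5KO replicate 3. Acly had 206 ± 20.3 CPM in controls and 192 ± 11.5 CPM in Myα5KO (SD, n = 3 each; log2 fold change -0.10, SE 0.08). Acaca, the acetyl-CoA carboxylase that makes malonyl-CoA, had 27.1 ± 2.85 and 24.4 ± 3.05 CPM (log2 fold change -0.15, SE 0.11). Its transcript shares 34.0% of its 150-base words with Gm5182, which held at most 7 counts in a library. Fasn, the fatty acid synthase, had 42.4 ± 3.19 and 41.8 ± 5.35 CPM (log2 fold change -0.02, SE 0.10).

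Scd1 and Scd2 encode desaturases that make oleate and palmitoleate. Scd1, singled out after its values were seen, had 18.8, 28.1 and 31.5 CPM in controls and 48.2, 26.5 and 27.8 CPM in Myα5KO libraries. Myα5KO replicate 1 stood above all other libraries and ITGA5 fl/fl replicate 1 below them, while the remaining 4 libraries were alike. Its log2 fold change of 0.38 (SE 0.21, 95% interval -0.07 to 0.83, edgeR adjusted p 0.303) was the largest positive value of the 28 in the fit reported, and was 0.04 without Myα5KO replicate 1 and 0.19 without ITGA5 fl/fl replicate 1. Without a filter on low counts it was called at an adjusted p of 0.00158, in a fit that gave all genes the same residual spread. Scd2 had 39.8 ± 5.36 CPM in controls and 35.9 ± 0.254 CPM in Myα5KO (SD, n = 3 each; log2 fold change -0.15, SE 0.09), and its Myα5KO libraries differed from each other far less than its controls.

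Adipocytes make much of their fat through this branch, so their markers were read beside it. The 7 adipocyte markers summed to 3.87 to 5.63 CPM in controls and 0.852 to 1.82 CPM in Myα5KO libraries, with Lep at 0 in each library and the mean of Adipoq at 0.161 and 0.0353 CPM. The 2 that passed the filter, Cfd and Car3, were both called lower in Myα5KO. Their part in the fatty acid genes was not tested.

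The coefficient of variation between replicates had a median of 9.34% in ITGA5 fl/fl and 6.50% in Myα5KO, against 8.51% and 9.22% for all genes tested. The sum over the 29 genes was 1040.2, 1130.0 and 1094 CPM in controls and 1048, 1019.9 and 983 CPM in Myα5KO libraries, and these ranges overlapped. All 5 fatty acid genes stood above their control mean in ITGA5 fl/fl replicate 2, whose sum was 377 CPM against 309 and 338 CPM in the other controls. Their sum was lowest in Myα5KO replicate 3, at 301 CPM. By contrast the sum of the 5 regulators was 420 to 432 CPM in controls and 375 to 390 CPM in Myα5KO libraries, without overlap, and Srebf2 contributed most to it.

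**Figure D4:**
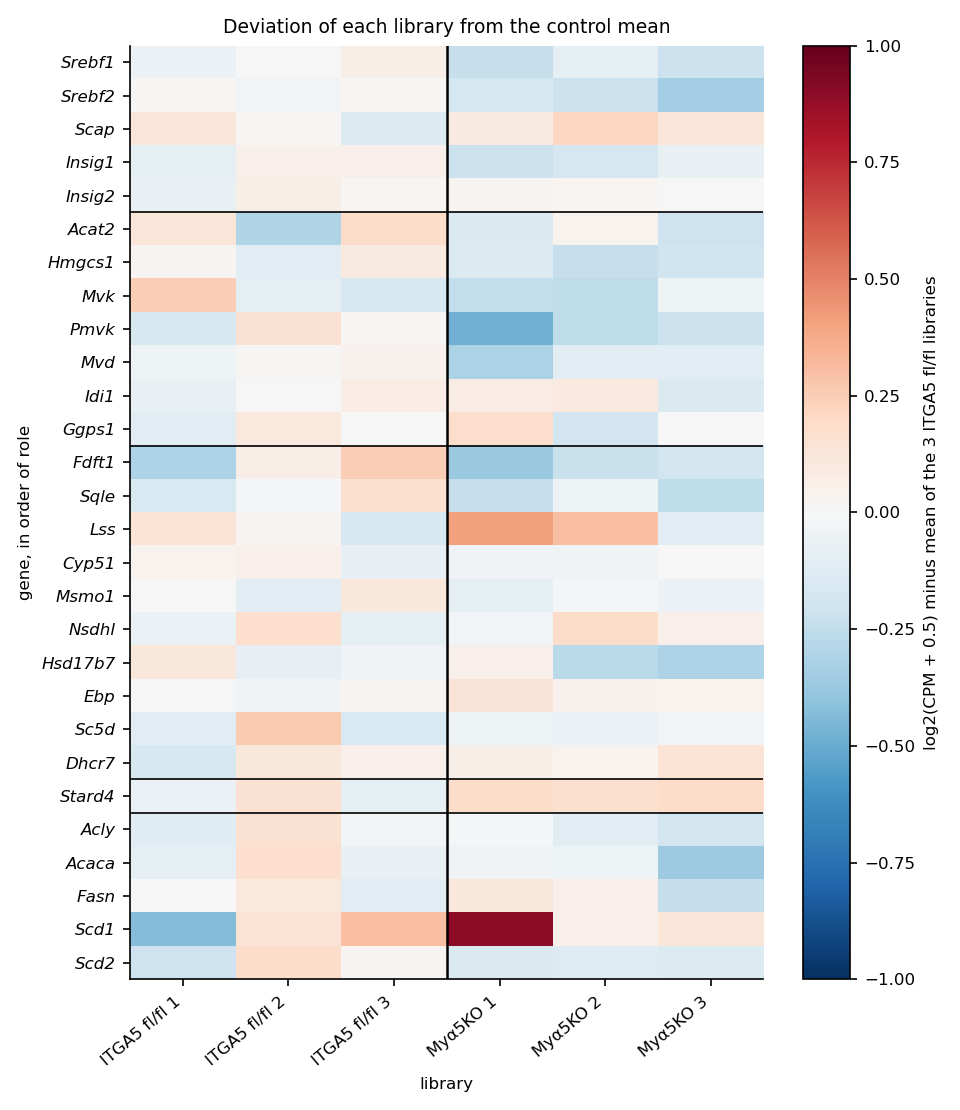
Log2(CPM + 0.5) of the 28 tested members in each library minus the mean of the 3 ITGA5 fl/fl libraries, with lines between roles; red is above and blue below the control mean. Of 168 values, 150 lie within 0.25 of the control mean, and the largest deviation is that of Scd1 in Myα5KO replicate 1, 0.90.

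The neighbouring genes of sterol and fatty acid metabolism were read from 4 further lists, 33 genes of which 32 were tested. The lists were chosen with earlier results of these data known, so counts set beside all genes give no test of a list. Of 14 other synthesis enzymes, 0 were called by edgeR and 4 had an unadjusted p under 0.05, each with a lower mean in Myα5KO, while DESeq2 called 1. The 4 are 28.6% of this list, against 23.1% of all genes at that threshold (11.4% lower).

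Of these 4 genes, 3 that act on fatty acids are named here after their values were seen. They were the elongases Elovl5 (log2 fold change -0.21, edgeR adjusted p 0.0517) and Elovl6 (-0.54, adjusted p 0.0779) and the Δ6-desaturase Fads2 (-0.55, adjusted p 0.11). Elovl5, an elongase of polyunsaturated fatty acids, was the gene that DESeq2 called, at an adjusted p of 0.0416. Its 117 ± 2.40 CPM in Myα5KO lay below 136 ± 6.33 CPM in ITGA5 fl/fl (SD, n = 3 each) without overlap.

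Of the genes of sterol uptake and other SREBP targets, 0 of 3 tested were called by edgeR, DESeq2 or limma-voom. An unadjusted edgeR p under 0.05 was found for 2, 1 higher and 1 lower, against 23.1% of all genes. Mid1ip1, an activator of acetyl-CoA carboxylase named after its values were seen, had 46.9 ± 3.04 CPM in controls against 54.9 ± 5.82 CPM in Myα5KO (SD, n = 3 each; log2 fold change 0.23, edgeR adjusted p 0.123). Its libraries did not overlap, and with library totals it was called, at an adjusted p of 0.0351.

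Among the genes of SREBP cleavage and sterol-regulated degradation, 1 of 6 was called higher, against 3.56% of all genes. Erlin1, an endoplasmic reticulum protein that restrains SREBP activation, had 35.4, 32.8 and 34.6 CPM in controls and 42.2, 39.0 and 43.9 CPM in Myα5KO libraries. All Myα5KO libraries lay above all controls. It rose by 0.28 on the log2 scale (SE 0.08, edgeR adjusted p 0.0347), with the same sign in 15 of 15 alternatives and a call in 7. DESeq2 gave an adjusted p of 0.0588, and without ITGA5 fl/fl replicate 1, 2 or 3 or Myα5KO replicate 1 or 3 it was 0.0543, 0.14, 0.0933, 0.0827 and 0.0896. The proteases Mbtps1 and Mbtps2, which release the SREBPs, were not called, with log2 fold changes of 0.06 and -0.04.

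Of the LXR, oxysterol and efflux genes, 3 of 9 were called higher and 1 lower, against 3.56% and 5.19% of all genes. This list was chosen with earlier results of these data known, so these counts give no test of the list. The higher calls fell to 0 on both FPKM scales and without ITGA5 fl/fl replicate 3, and to 1 without ITGA5 fl/fl replicate 2 or Myα5KO replicate 2. Abca1, which exports cholesterol to apolipoprotein A-I, had 1721, 1458 and 1625 CPM in controls and 1148, 1078 and 827 CPM in Myα5KO libraries. The groups lay far apart. Abca1 fell by 36.4% (log2 fold change -0.65, SE 0.11, edgeR adjusted p 0.00291) and was called in 15 of 15 alternatives. Abcg1, which exports cholesterol to mature HDL particles, moved the other way, from 113, 100.2 and 95.6 CPM to 123, 126 and 126 CPM. Its log2 fold change was 0.28 (SE 0.07, edgeR adjusted p 0.0247), with a call in 10 of 15 alternatives, and adjusted p of 0.109, 0.12 and 0.0851 without ITGA5 fl/fl replicate 2 or 3 or Myα5KO replicate 2. As a ratio on the FPKM scale, formed after the values were seen, Abcg1 to Abca1 was 0.164 ± 0.0129 in ITGA5 fl/fl and 0.320 ± 0.0602 in Myα5KO (SD, n = 3 each).

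Ch25h encodes the hydroxylase that makes 25-hydroxycholesterol, an oxysterol that activates LXR and promotes retention of SREBPs by the INSIG proteins. It had 15.6, 17.3 and 15.3 CPM in controls and 18.8, 31.0 and 28.8 CPM in Myα5KO libraries. The controls were alike, and 1 Myα5KO library stood only slightly above them. Ch25h rose by 0.71 on the log2 scale (SE 0.15, edgeR adjusted p 0.0112) and was called in 12 of 15 alternatives, with an adjusted p of 0.0562 without ITGA5 fl/fl replicate 3. Nr1h3, the gene of LXRα, had 18.3, 17.4 and 20.1 CPM against 23.8, 22.5 and 23.0 CPM, with a change of 0.31 on the log2 scale (SE 0.09, edgeR adjusted p 0.0492). This call stood at the threshold: it was kept in 3 of 15 alternatives and in 0 of the 6 that leave out a library, where the adjusted p ranged from 0.0606 to 0.186.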

How the data were processed

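RNA of Ly6G- CD11b+ infarct macrophages was sequenced as paired-end reads in 3 ITGA5 fl/fl and 3 Myα5KO libraries, grouped by title. The authors removed reads with adapter, poly-N or low quality, aligned the rest to GRCm38 with TopHat2 2.0.9 and counted reads per gene with HTSeq 0.6.1. The deposited count values are whole numbers without normalization, and the authors also deposited FPKM values, which equal the count divided by the deposited gene length and 1 constant per library. Cufflinks 2.1.1 is named in the submitters' processing notes. Handling of strand and multi-mapped reads is not given in the sources used here. The deposited comparison columns (fold changes and p-values) were not used.

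The counts were fitted with edgeR 4.0.16 (quasi-likelihood F-test, R 4.3.3), with TMM factors and the default filter (minimum count 10, minimum total 15). This left 14522 genes, over all of which two-sided p-values were adjusted by Benjamini-Hochberg. CPM use the TMM factors. The members and lists were chosen with earlier results of these data known. Values per library are given for the regulators, for members with an adjusted p of 0.05 or less and for members whose groups do not overlap; of the further lists, for genes called. Some genes of the further lists are counted but not reported here by name. Alternatives were DESeq2 1.42.0, limma-voom (limma 3.58.1), limma on log2(FPKM + 1) and log2(FPKM + 0.1) where 3 or more libraries reached an FPKM of 1, median-ratio and library-total scaling, no filter, 10 counts in every library, the replicate number as a block, and leaving out each library. The sum of macrophage markers without Lyz2 was added after seeing the data.

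On simulated counts, with 14293 genes tested, 51, 51, 46 and 52 genes were changed by 0.4, 0.6, 1 and 1.5 on the log2 scale. Of these, edgeR recovered 27.5%, 51%, 71.7% and 92.3%, and 10 of its 131 calls were false. The data gave 1271 calls, so the adjusted threshold differs and these shares need not hold for the data. One count was worth 0.0526 to 0.067 CPM, and counts of amplified reads carry counting error only as a lower limit. Each library comes from a separate heart, and libraries of a group differed beyond sampling noise (chi-square per degree of freedom of at least 5.59). Promoter and shared-sequence values used RefSeq windows and GENCODE transcripts of GRCm38.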

Additional observations from a re-analysis of the deposited data

How the results depend on the processing

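Leaving out 1 library at a time gave 187 to 420 genes higher and 429 to 671 lower, 0 members higher and 0 to 1 lower. In the further lists it gave 0 to 1 other synthesis enzymes lower, 0 to 1 SREBP cleavage genes higher, and 0 to 3 LXR, oxysterol and efflux genes higher with 1 lower. Against 517 genes higher and 754 lower in the fit reported, limma called 150 and 322 on log2(FPKM + 1) and 142 and 306 on log2(FPKM + 0.1). On both FPKM scales 0 members were lower, 0 SREBP cleavage genes higher and 0 LXR genes higher. Library totals gave 1212 genes higher, so that 70.1% of calls were higher in place of 40.7%, with 0 members lower, 1 SREBP-induced gene higher (Mid1ip1) and a difference in the macrophage marker sum of -2871 CPM in place of -3884 CPM; the median log2 fold change of all genes was then 0.10 in place of 0.01. Without a count filter, 798 genes and 1 member (Scd1) were higher. DESeq2, median-ratio scaling and 10 counts in every library each gave 1 other synthesis enzyme lower (Elovl5), and DESeq2 gave 0 SREBP cleavage genes higher. Without Lyz2, an alternative chosen after seeing the data, the macrophage marker difference was -443 CPM. The causes were not tested.

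Log2 fold changes near 0 changed sign in 8 members, none of them called. With 10 counts in every library, Insig2 was -0.0005 and Idi1 -0.0049. With library totals, Ggps1 was 0.0768, Cyp51 0.0593, Msmo1 0.0217, Sc5d 0.0205 and Fasn 0.0596, and without a filter Ggps1 was 0.0023. Over the fits that leave out 1 library, Insig2 ranged from -0.0208 to 0.0441, Idi1 from -0.0389 to 0.0912, Ggps1 from -0.1079 to 0.0828, Cyp51 from -0.0643 to 0.0054, Msmo1 from -0.1154 to 0.0025, Sc5d from -0.1414 to 0.089, Dhcr7 from -0.0028 to 0.1284 and Fasn from -0.0967 to 0.0811.

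The replicate numbers did not pair the libraries: deviations of same-numbered libraries correlated at 0.051, -0.058 and 0.043. With a replicate block, 464 genes were higher and 717 lower, the members gave 0 higher and 1 lower, and Nr1h3 lost its call (2 LXR genes higher).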
